A study of Mus musculus with 12 samples.

Results

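This comparison set dermal fibroblasts sorted from inflamed back skin of InvEE mice against dermal fibroblasts sorted from normal back skin of wild-type mice. It used the 4 arrays titled as InvEE fibroblasts and the 4 titled as wild-type fibroblasts, which are 8 of the 12 arrays of the series. All 18193 genes that could be measured were described, each by 1 probe set, the one with the highest mean over the 12 arrays among those that carry exactly 1 gene symbol. The donors of both groups were male, 7 weeks old, and carried the PDGFRα-H2B-eGFP allele. This is a reporter that places a green fluorescent histone in the nuclei of cells that express PDGF receptor alpha; GFP-positive cells were collected by flow cytometry. In InvEE mice the involucrin promoter drives constitutively active MEK1, a kinase upstream of ERK. Involucrin belongs to the suprabasal epidermis, so the transgene is not designed to be expressed in fibroblasts. The wild-type mice had no InvEE transgene. The other 4 arrays held fibroblasts from tumour-associated skin of InvEE mice with the same reporter, and entered the fit through the shared estimate of spread. Whether replicates were separate animals is not stated in the labels. The spread behind each p-value is that between these samples, and it may be technical.

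Dermal fibroblasts build and remodel the collagenous matrix of the skin and signal to the epidermis and to hair follicles. Specialised fibroblasts form the dermal papilla at the base of the follicle and the contractile dermal sheath around it. In inflamed or wounded skin fibroblasts can assemble stress fibres of smooth muscle actin, change the matrix that they secrete and release chemokines that attract leukocytes.

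The values were on a log2 scale, so that a difference of 1 is a 2-fold difference. The 10 fibroblast markers stood high on all 8 arrays, with a mean per array of 13.0 to 13.1 in the normal and 12.9 to 13.0 in the inflamed group, and none was called (limma; 1 higher and 1 lower at an unadjusted p under 0.05). Pdgfra, the receptor gene behind the reporter, read 10.34, 9.92, 10.24 and 9.26 on normal arrays 1 to 4 and 10.35, 10.59, 10.88 and 10.66 on inflamed arrays 1 to 4, a difference of 0.68 ± 0.25 (SE; adjusted p = 0.225). Its ranges did not overlap, with the inflamed arrays higher, as in 5.07% of all genes. The 2 other Pdgfra probe sets differed by 0.16 to 0.34, and none was called. Col1a1, a chain of collagen I, read 14.46, 14.42, 14.36 and 14.55 on normal arrays 1 to 4 and 14.29, 14.04, 14.46 and 14.40 on inflamed arrays 1 to 4, and its groups overlapped. Pairs of arrays correlated over all genes with a Pearson's r of 0.928 to 0.980 among the normal and 0.961 to 0.989 among the inflamed arrays. The poly-A RNAs added as controls (27 probe sets) averaged 8.72 to 11.43 on the normal and 7.46 to 8.16 on the inflamed arrays, a difference of -2.11 (exact permutation test over arrays, two-sided p = 0.0286, the smallest that 4 against 4 allows; 0.0572 after adjustment over the 4 control measures). On the tumour-associated arrays the poly-A controls averaged 9.21 to 11.66, so the lower signal coincided with the inflamed group alone. The hybridisation controls (18 probe sets) differed by -0.45 between inflamed and normal arrays, with the same p as the poly-A controls. The 3′ minus 5′ signal of Gapdh was 1.59 to 2.28 on the normal arrays and 1.62 to 1.97 on inflamed arrays 1, 2 and 4, against 3.37 on inflamed array 3. The part of these control signals in the results was not tested beyond the refit with the spike level as a covariate, in which 0 genes were called by limma and 2227 had an unadjusted p under 0.05. In it 14 of the 97 genes called without it were smaller by over 1.5 times, at most 1.81 times.

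Of the 18193 genes, 97 passed an adjusted p of 0.05 (limma, Benjamini-Hochberg over all genes), which is 0.533% of those tested. These are referred to as called. For a further probe set of a gene, called refers to a separate limma fit of all 34945 probe sets with 1 gene symbol. Its adjustment ran over those probe sets, so it is not the same test as for the genes. In inflamed skin 47 of the 97 genes were higher (0.258%) and 50 lower (0.275%), and 85 of the 97 differed at least 2-fold. In all 97 the normal and inflamed arrays did not overlap, but so it was in 15.3% of all genes, 5.07% with the inflamed arrays higher and 10.2% with them lower. At an unadjusted p under 0.05 stood 15.6% of all genes, 6.68% higher and 8.91% lower. The median difference over all genes was -0.09. The adjusted p-values of the called genes began at 0.0201, and 0 genes passed 0.01 (limma; 2837 at an unadjusted p under 0.05). The split depended on the scaling: with the arrays shifted by the mean of the ribosomal protein genes, 28 of 144 called genes were higher (19.4%, against 48.5%). That shift moves every difference by -0.25, so differences and list medians between 0 and 0.25 change sign under it. The number called rested on single arrays. It was 0 without normal array 1, inflamed array 1 or inflamed array 2, with 2358, 2222 and 1967 genes at an unadjusted p under 0.05, 13 without normal array 2 and 44 without inflamed array 3. It was 49, 55 and 249 without tumour-associated arrays 2, 3 and 4. Over the 12 fits that each left out 1 array, the unadjusted limma p of the 97 genes stayed at or under 0.00127. These genes were picked for a small p on the same arrays. Since their groups do not overlap, leaving out 1 array could not change their sign.

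**Figure D1:**
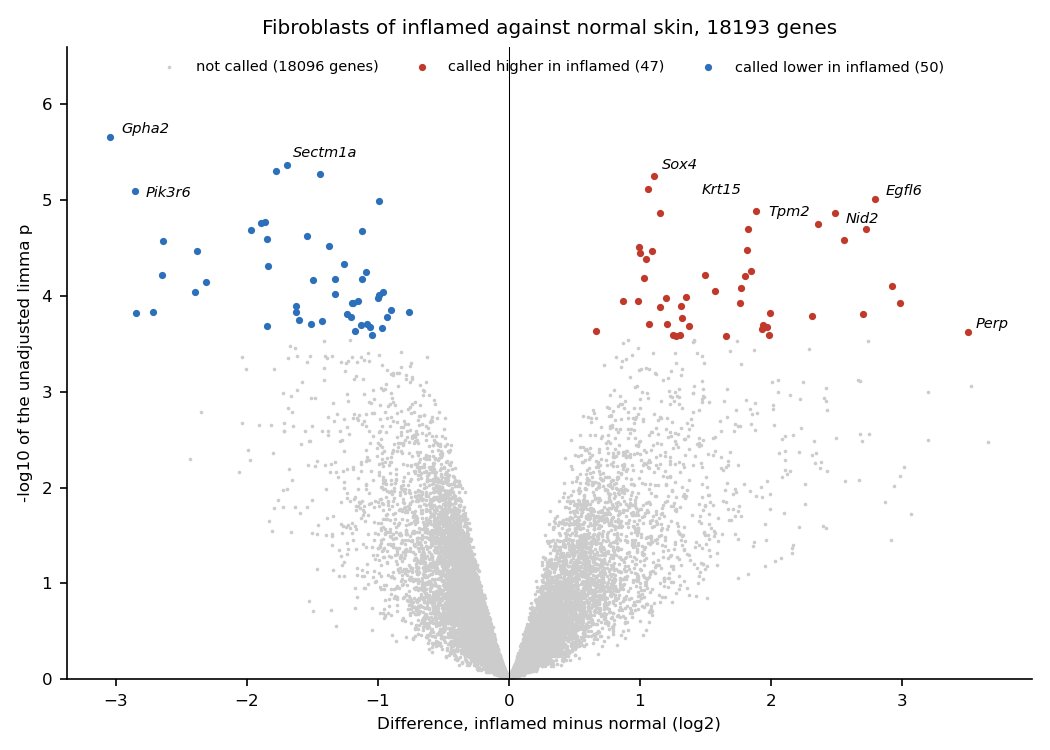
Difference between inflamed and normal fibroblasts (x axis, log2) against the -log10 of the unadjusted limma p (y axis) for each of 18193 genes. The 47 genes called higher and the 50 called lower lie above all other genes, and the largest differences among the called genes are 3.50 for Perp and -3.04 for Gpha2.

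**Figure D2:**
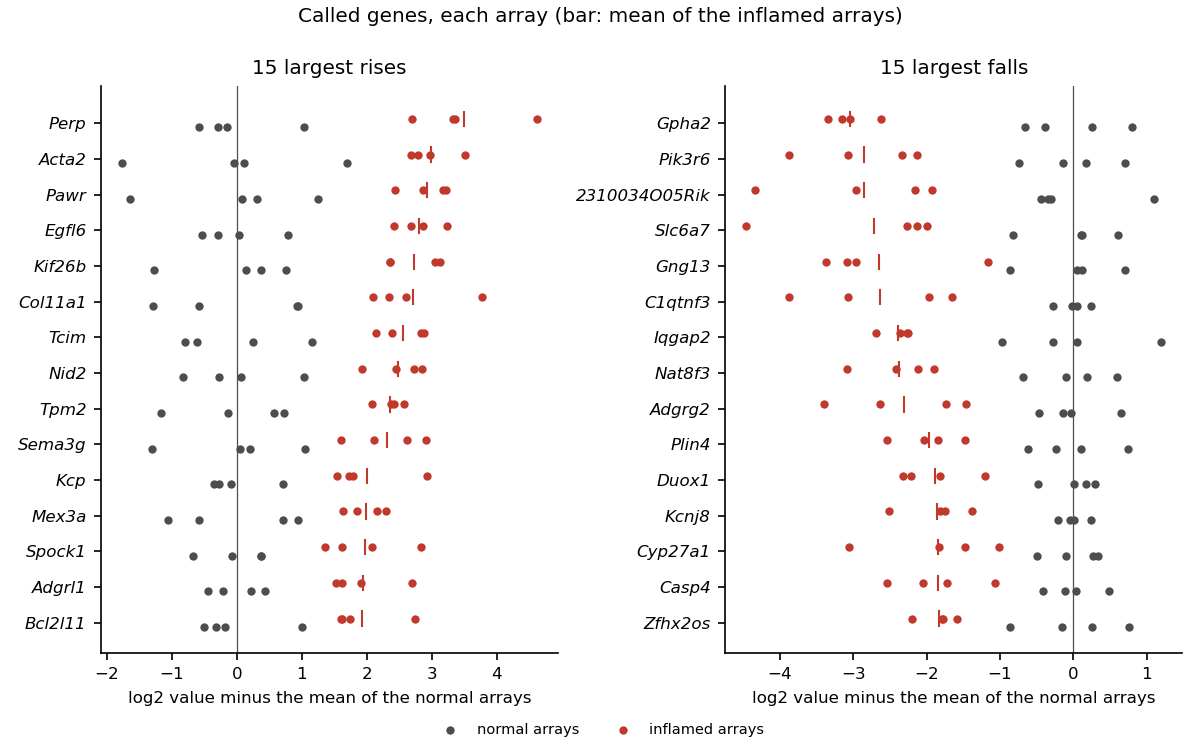
Log2 values of each array minus the mean of the 4 normal arrays, for the 15 called genes with the largest rise and the 15 with the largest fall. The grey and red points of each gene do not overlap, and inflamed array 3 stands apart from the other inflamed arrays in Slc6a7, at 6.89 against 9.08 to 9.35.

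The 4 called members of the list of actin, tropomyosin and contractile genes all rose. These were Acta2, Tpm2, Cnn2 and Tagln, of 26 members measured (15.4% called higher, against 0.258% of all genes). Another 18 members had positive differences that were not called, and the list's median difference was 0.56, against -0.09 over all genes. In 12 of the 26 the groups did not overlap with the inflamed arrays higher, against 5.07% of all genes. In bulk samples such as these, a change in the number of cells of a type and a change in RNA per cell cannot be told apart.

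Promoter stretches of 3 genes are shown for the contractile genes that rose, because the list holds several genes classically controlled through the CArG box, the site of serum response factor. They are from RefSeq (GRCm38.p6), run 5′ to 3′ on the gene's strand, and end at the base before the annotated start.
Acta2, chr19:34255374-34255523, minus strand: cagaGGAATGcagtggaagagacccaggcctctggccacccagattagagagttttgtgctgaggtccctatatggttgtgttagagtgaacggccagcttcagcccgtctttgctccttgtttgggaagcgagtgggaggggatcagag
Cnn2, chr10:79988450-79988599, plus strand: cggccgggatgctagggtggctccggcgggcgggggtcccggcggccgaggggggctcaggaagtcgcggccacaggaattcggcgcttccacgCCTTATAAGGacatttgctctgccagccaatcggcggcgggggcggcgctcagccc
Tpm2, chr4:43523555-43523704, minus strand: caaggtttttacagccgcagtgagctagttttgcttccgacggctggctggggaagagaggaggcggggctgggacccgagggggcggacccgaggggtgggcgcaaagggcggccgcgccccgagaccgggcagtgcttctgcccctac
Capitals mark, in Cnn2, an exact CArG box at -56 and, in Acta2, the TEAD motif GGAATG at -146. The Tpm2 stretch held neither. The 300-base windows searched ran from 250 bases before to 50 after the start, on both strands, and 14452 of the genes tested had one. The search for the CArG box asked for an exact match, CC and GG around 6 bases that are each A or T. It stood in 5 of the 24 contractile genes with a window (Cnn2, Fhl2, Myl6, Myl9 and Vcl; 20.8%) and in 1.58% of all genes. The Acta2 stretch holds no exact match but a pair of stretches that each differ from it by 1 base, at -84 and -34. With 1 base allowed to differ, 11 of the 24 (45.8%) and 21.2% of all genes had a match. GGAATG stood in 10 of the 24 (41.7%) and in 15.3% of all genes. Among genes called higher, a CArG box stood in 1 of 34 (Cnn2) and GGAATG in 6, and among those called lower in 1 of 36 (Tpst2) and in 5. The AP-1 motif TGANTCA stood in 2 of the 34 and 1 of the 36, against 7.54% of all genes. The Smad motif GTCTAGAC, the GLI motif GACCACCCA and the NF-kappaB consensus motif were in no window of a called gene, and in 0.291%, 0.235% and 0.228% of all genes. A match is a description of these letters and does not show binding.

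Tpm2, the beta tropomyosin that lies along actin filaments, read 9.37, 10.23, 10.07 and 8.33 on normal arrays 1 to 4 and 11.92, 12.08, 11.87 and 11.59 on inflamed arrays 1 to 4. All inflamed arrays lay above all normal arrays, and it rose by 2.36 ± 0.35 (SE; adjusted p = 0.0202). The 3 other Tpm2 probe sets differed by 1.74 to 2.27, and 1 was called. Tpm2 in tumour-associated skin read 12.98, 12.60, 12.32 and 12.81. Acta2, the smooth muscle actin of stress fibres, read 8.53, 8.68, 10.26 and 6.80 on normal arrays 1 to 4 and 11.54, 11.35, 12.09 and 11.24 on inflamed arrays 1 to 4. The normal arrays were widely spread, from array 4 at the bottom to array 3 at the top, and all lay below the inflamed arrays. It rose by 2.99 ± 0.54 (SE; adjusted p = 0.0368). The 2 other Acta2 probe sets differed by -0.05 to 0.19, and none was called. Both of these were dim in both groups, with means of 4.09 to 5.44, under the limit of 6.16 below which 40% of genes lie. The call thus rested on the single bright probe set. With the spike level as a covariate Acta2 differed by 1.86. Acta2 in tumour-associated skin read 12.79, 12.68, 12.78 and 13.30.

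Cnn2, a calponin that binds actin, read 8.97, 9.35, 9.77 and 9.25 on normal arrays 1 to 4 and 10.81, 11.18, 11.34 and 10.32 on inflamed arrays 1 to 4 and rose by 1.58 ± 0.27 (SE; adjusted p = 0.0355). Cnn2 in tumour-associated skin read 11.84, 11.49, 11.39 and 10.77. Tagln, the transgelin of contractile cells, read 8.46, 7.65, 8.55 and 7.96 on normal arrays 1 to 4 and 9.56, 10.16, 9.43 and 9.48 on inflamed arrays 1 to 4 and rose by 1.502 ± 0.25 (SE; adjusted p = 0.0302). Tagln in tumour-associated skin read 11.95, 11.96, 11.93 and 12.63. In both genes the groups did not overlap. The myosin light chain gene Myl9 was not called at 2.15 ± 0.50 (SE; adjusted p = 0.089), nor was Mylk, the kinase of that chain, at 1.38 ± 0.44 (SE; adjusted p = 0.176). The lowest members were Zyx at -0.47 ± 0.30 and Cnn1 at -0.31 ± 0.31, neither called.

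Other genes of the cytoskeleton were called in both directions, a grouping by role made after the values were seen. Kif26b, an atypical kinesin, read 6.61, 6.84, 7.22 and 5.20 on normal arrays 1 to 4 and 8.83, 9.52, 9.60 and 8.83 on inflamed arrays 1 to 4 and rose by 2.73 ± 0.40 (SE; adjusted p = 0.0202). Other genes rose by smaller amounts. Tns3, a tensin of focal adhesions, rose by 1.09 ± 0.17, and Dock6, an activator of Rac and Cdc42, by 1.06 ± 0.14. Marcksl1, an actin-binding membrane protein, rose by 1.37 ± 0.26, and Fnbp1l, which couples membrane curvature to actin assembly, by 1.66 ± 0.33. The 3 other Marcksl1 probe sets differed by 2.09 to 2.68, and none was called. Iqgap2, a scaffold for Rac and Cdc42, read 7.19, 8.21, 7.88 and 9.36 on normal arrays 1 to 4 and 5.90, 5.47, 5.89 and 5.80 on inflamed arrays 1 to 4 and fell by 2.39 ± 0.42 (SE; adjusted p = 0.0355). Another Iqgap2 probe set differed by -1.17 and was not called. Coro2b, a coronin, fell by 1.19 ± 0.21, and Arhgef10 fell by 0.99 ± 0.17. Itgb1bp1, which binds the tail of integrin beta 1, fell by 1.12 ± 0.17, and Sh3d19 fell by 1.12 ± 0.19. The 3 other Sh3d19 probe sets differed by -1.20 to -0.61, and 1 was called.

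**Figure D3:**
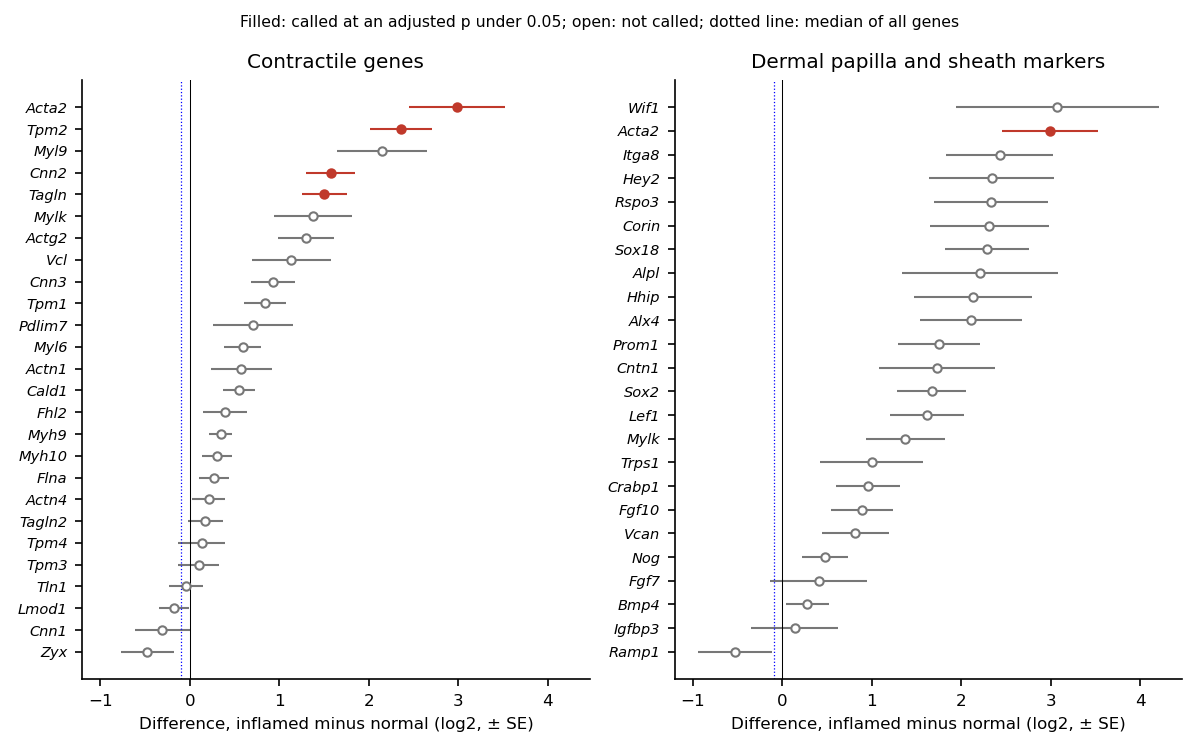
Difference between inflamed and normal fibroblasts (log2, with SE as the bar) for each measured member of the contractile list (26 genes) and of the dermal papilla and sheath list (24 genes). Filled points, Acta2, Tpm2, Cnn2 and Tagln, were called, and most open points lie to the right of the dotted median of all genes at -0.09.

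In the matrix, 5 genes of the collagen and basement membrane lists were called higher and none lower, against 0.258% and 0.275% of all genes. Called higher were 14.3% of the fibrillar and fibril-associated collagens, 14.3% of the beaded-filament and network collagens and 7.41% of the basement membrane components. Among the 14 fibrillar and fibril-associated collagens Col11a1 and Col12a1 were called, while 8 members had negative differences and the median was -0.13. Col11a1, a minor collagen that nucleates thin fibrils, read 5.91, 7.44, 7.42 and 5.21 on normal arrays 1 to 4 and 8.85, 8.59, 10.28 and 9.10 on inflamed arrays 1 to 4 and rose by 2.71 ± 0.50 (SE; adjusted p = 0.0406). Another Col11a1 probe set differed by 2.53 and was called. Col11a1 in tumour-associated skin read 10.86, 10.32, 11.02 and 11.12. Col12a1, a collagen on the surface of fibrils, read 7.09, 6.89, 7.22 and 7.34 on normal arrays 1 to 4 and 8.14, 8.15, 8.37 and 7.85 on inflamed arrays 1 to 4. The inflamed arrays all lay above the normal ones, and it rose by 0.99 ± 0.15 (SE; adjusted p = 0.022). The 3 other Col12a1 probe sets differed by 0.09 to 3.02, and 1 was called. Col12a1 in tumour-associated skin read 12.99, 13.28, 13.20 and 13.14.

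Col6a3, a chain of the beaded filaments around cells, read 11.02, 10.80, 11.22 and 10.59 on normal arrays 1 to 4 and 11.85, 12.27, 11.98 and 12.16 on inflamed arrays 1 to 4 and rose by 1.16 ± 0.16 (SE; adjusted p = 0.0202). Col6a3 in tumour-associated skin read 12.96, 12.91, 12.72 and 12.67. It was the single called member of the 7 beaded-filament and network collagens, whose median was 0.26. Of 27 basement membrane components, Egfl6 and Nid2 were called and 14 had negative differences, with a median of -0.01. At an unadjusted p under 0.05 (limma) 8 were higher and 5 lower. The inflamed arrays lay wholly above the normal ones in 7 and wholly below in 3, against 5.07% and 10.2% of all genes. Egfl6, an EGF-repeat protein of the follicle's basement membrane, read 2.74, 3.31, 4.05 and 2.98 on normal arrays 1 to 4 and 5.95, 6.13, 5.68 and 6.50 on inflamed arrays 1 to 4. Its mean lay among the dimmest 40% of values in both groups, and it rose by 2.80 ± 0.39 (SE; adjusted p = 0.0202). Egfl6 in tumour-associated skin read 3.14, 5.00, 3.98 and 3.44. Nid2, nidogen 2, which links laminin to collagen IV, read 6.71, 6.38, 7.68 and 5.83 on normal arrays 1 to 4 and 9.10, 9.38, 9.50 and 8.58 on inflamed arrays 1 to 4 and rose by 2.49 ± 0.36 (SE; adjusted p = 0.0202). Nid2 in tumour-associated skin read 10.91, 10.05, 10.78 and 10.62. In every called gene of these collagen and basement membrane lists, the 4 normal arrays lay below the 4 inflamed ones.

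Further called genes of the secreted and pericellular space, grouped after their values were seen, were Spock1, Coch, Chsy1, Aebp1 and Tpst2. Spock1, a testican proteoglycan, read 7.26, 7.25, 6.81 and 6.20 on normal arrays 1 to 4 and 8.96, 8.50, 9.72 and 8.23 on inflamed arrays 1 to 4 and rose by 1.97 ± 0.38 (SE; adjusted p = 0.0447). Another Spock1 probe set differed by 2.08 and was not called. Coch, cochlin, a secreted protein with von Willebrand A domains, rose by 1.76 ± 0.32. Chsy1, a chondroitin sulfate synthase, rose by 1.32 ± 0.25. Aebp1, a secreted protein that binds collagen, fell by 0.93 ± 0.17. The 2 other Aebp1 probe sets differed by -1.50 to -1.30, and 1 was called. Tpst2, which sulfates tyrosines of secreted proteins, fell by 1.00 ± 0.18. In 5 further matrix lists no gene was called by limma. The 15 collagen processing and cross-linking genes had 2 members higher and 4 lower at an unadjusted p under 0.05, a median of -0.17, and the smallest p for the lysyl hydroxylase Plod2 at 2.06 ± 0.46 (SE; adjusted p = 0.0761). The 25 matricellular genes had 7 higher and 1 lower and a median of 0.25, led by Tgfbi at -1.08 ± 0.22 (SE; adjusted p = 0.0616). The 15 elastic fibre genes had 1 and 1 and a median of -0.19, led by the fibrillin Fbn2 at 1.69 ± 0.35 (SE; adjusted p = 0.0616). The 24 matrix proteases and inhibitors had 4 and 4 and a median of -0.01, led by Timp2 at -0.57 ± 0.14 (SE; adjusted p = 0.0922). The 10 hyaluronan genes had 2 and 1 and a median of 0.01, led by Tnfaip6 at 1.26 ± 0.30 (SE; adjusted p = 0.0926).

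Among developmental signalling genes, most differences of the Wnt, BMP and hedgehog, and dermal papilla lists were positive, and Acta2 alone was called. The dermal papilla and dermal sheath list had 23 of 24 members with a positive difference and a median of 1.70. Acta2 alone was called, 4.17% of the members against 0.258% of all genes. In 15 of the 24 (62.5%, against 5.07% of all genes) the inflamed arrays lay wholly above the normal ones. Single arrays carried part of this. Normal array 4 was the lowest normal array in 19 of the 24 and inflamed array 3 the highest inflamed array in 16. Wif1, a Wnt inhibitor, read 9.34, 9.96, 8.84 and 4.47 on normal arrays 1 to 4 and 10.89, 10.94, 12.53 and 10.53 on inflamed arrays 1 to 4, and Hhip, a hedgehog inhibitor, 7.69, 8.44, 7.62 and 6.57 on normal arrays 1 to 4 and 9.18, 8.61, 12.16 and 8.87 on inflamed arrays 1 to 4. In Wif1 normal array 4 stood far below, and in Hhip inflamed array 3 far above, the rest of its group. The list's median was 1.45 without normal array 4, 1.36 without inflamed array 3 and 0.92 under the spike covariate. The values of uncalled members were 2.29 ± 0.47 (SE; adjusted p = 0.0588) for Sox18, 1.67 ± 0.38 (SE; adjusted p = 0.0844) for Sox2, both transcription factors of the papilla, and 2.31 ± 0.67 (SE; adjusted p = 0.14) for Corin, a papilla protease. The Wnt amplifier Rspo3 differed by 2.33 ± 0.64 (SE; adjusted p = 0.123), and the transcription factors Lef1 and Alx4 by 1.62 ± 0.41 (SE; adjusted p = 0.106) and 2.11 ± 0.57 (SE; adjusted p = 0.118). The array means of the list were 7.41 to 8.80 in the normal and 9.41 to 10.67 in the inflamed group, without overlap.

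None of the 27 Wnt genes was called by limma (8 higher and 0 lower at an unadjusted p under 0.05; median 0.63), and the smallest p was that of the inhibitor Dkk1 at 0.86 ± 0.18 (SE; adjusted p = 0.0676). None of the 23 BMP and hedgehog genes was called either (9 higher and 3 lower at an unadjusted p under 0.05; median 0.55). The hedgehog effector Gli1 differed by 1.81 ± 0.43 (SE; adjusted p = 0.0922) and the receptor Ptch1, itself a target of the pathway, by 2.75 ± 0.74 (SE; adjusted p = 0.118). Disp1, which releases hedgehog ligands from cells and was not on the list, fell by 1.26 ± 0.20. Another Disp1 probe set differed by -1.77 and was not called. Kcp, a secreted modulator of BMP signalling, read 8.40, 9.39, 8.59 and 8.33 on normal arrays 1 to 4 and 10.40, 10.22, 11.61 and 10.47 on inflamed arrays 1 to 4 and rose by 1.998 ± 0.37 (SE; adjusted p = 0.0405). Jag1, a Notch ligand, rose by 1.85 ± 0.30. The 2 other Jag1 probe sets differed by 1.25 to 1.66, and none was called. Of 22 TGF-beta pathway genes, Pmepa1 was called (4.55% called higher, against 0.258% of all genes). This target and inhibitor of TGF-beta signalling read 10.40, 10.19, 10.62 and 10.34 on normal arrays 1 to 4 and 11.26, 11.57, 10.92 and 11.30 on inflamed arrays 1 to 4 and rose by 0.87 ± 0.16 (SE; adjusted p = 0.0368). The 2 other Pmepa1 probe sets differed by 0.61 to 0.79, and none was called. Pmepa1 in tumour-associated skin read 13.08, 12.99, 13.06 and 13.10. The median of that list was 0.23. Tgif2, a corepressor of Smad-dependent transcription, rose by 1.20 ± 0.21. Another Tgif2 probe set differed by 1.15 and was not called.

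The 24 axon guidance genes, whose ligands also act on vessels and fibroblasts, held 1 rise and 1 fall, both class 3 semaphorins. Each was 4.17% of the list, against 0.258% of all genes called higher and 0.275% called lower. Sema3g read 7.15, 7.997, 7.00 and 5.63 on normal arrays 1 to 4 and 9.06, 9.57, 9.86 and 8.55 on inflamed arrays 1 to 4 and rose by 2.32 ± 0.43 (SE; adjusted p = 0.0411). Sema3g in tumour-associated skin read 9.06, 8.90, 9.64 and 9.10. Sema3b read 11.45, 11.41, 11.47 and 11.24 on normal arrays 1 to 4 and 9.56, 8.95, 10.04 and 10.62 on inflamed arrays 1 to 4 and fell by 1.60 ± 0.30 (SE; adjusted p = 0.0431). The 2 other Sema3b probe sets differed by -1.35 to -1.34, and none was called. Sema3b in tumour-associated skin read 9.26, 9.78, 9.61 and 9.01. Neither gene's groups overlapped, and the list's median was -0.02.

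Cadherins and other adhesion proteins moved in both directions, a grouping made after the values were seen. Cdh11, the cadherin of mesenchymal cells, rose by 1.81 ± 0.30 (SE; adjusted p = 0.0302). Another Cdh11 probe set differed by 1.98 and was not called. Cdh4, the R-cadherin, was the single called member of the 20 papillary and reticular dermis markers (5.0% called lower, against 0.275% of all genes). It read 10.15, 10.16, 10.28 and 10.38 on normal arrays 1 to 4 and 8.72, 8.32, 8.42 and 9.52 on inflamed arrays 1 to 4, all inflamed arrays below all normal arrays, and fell by 1.49 ± 0.25 (SE; adjusted p = 0.0305). The 2 other Cdh4 probe sets differed by -1.57 to -1.10, and none was called. Cdh4 in tumour-associated skin read 6.66, 6.13, 6.47 and 6.92. That list's median was 0.05. Ncam1, a neural cell adhesion molecule, rose by 1.04 ± 0.17. The 6 other Ncam1 probe sets differed by 0.02 to 1.40, and none was called. Cd99, a surface glycoprotein of leukocyte passage, fell by 1.17 ± 0.23. The 2 other Cd99 probe sets differed by -1.36 to -0.81, and 1 was called. Cavin3, a coat protein of caveolae, fell by 1.06 ± 0.20. Sorcs2, a sorting receptor, rose by 1.26 ± 0.25. Of the 18 integrin subunits none was called by limma (4 higher and 2 lower at an unadjusted p under 0.05; median -0.07), and the smallest p was that of Itga8 at 2.43 ± 0.60 (SE; adjusted p = 0.0999).

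Receptors and second messenger genes made up 8 falls and 4 rises. Gpha2, an alpha subunit of the glycoprotein hormone family, read 10.75, 10.10, 11.30 and 9.83 on normal arrays 1 to 4 and 7.45, 7.34, 7.15 and 7.88 on inflamed arrays 1 to 4. It fell by 3.04 ± 0.36 (SE; adjusted p = 0.0201), the largest fall measured among called genes, and no inflamed array came within the normal range. Gng13, a G protein gamma subunit, read 9.01, 9.92, 9.99 and 10.57 on normal arrays 1 to 4 and 6.91, 6.79, 6.50 and 8.71 on inflamed arrays 1 to 4. Inflamed array 4 was the highest of its group and still lay under every normal array, and the gene fell by 2.65 ± 0.44 (SE; adjusted p = 0.0302). Another Gng13 probe set differed by -0.35 and was not called. Pik3r6, the regulatory subunit that couples PI3-kinase gamma to G protein receptors, read 10.89, 10.58, 9.98 and 11.43 on normal arrays 1 to 4 and 8.38, 6.84, 7.66 and 8.59 on inflamed arrays 1 to 4 and fell by 2.85 ± 0.39 (SE; adjusted p = 0.0202). Another Pik3r6 probe set differed by -2.18 and was called.

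Adgrg2, an adhesion receptor coupled to G proteins, read 8.71, 8.60, 8.28 and 9.40 on normal arrays 1 to 4 and 7.29, 6.11, 5.34 and 7.02 on inflamed arrays 1 to 4 and fell by 2.31 ± 0.39 (SE; adjusted p = 0.0311). Another Adgrg2 probe set differed by -1.60 and was not called. Adcy1, a calcium-sensitive adenylyl cyclase, fell by 1.78 ± 0.23. Another Adcy1 probe set differed by -1.44 and was not called. Akap12, a scaffold for protein kinase A, fell by 1.62 ± 0.30. Lpar3, a lysophosphatidic acid receptor, fell by 1.44 ± 0.19, from a low normal level of 5.08 to 5.50. The members of this signalling group that rose were Adgrl1, Adgrl3, Gprasp2 and Inpp4b. Adgrl1, a latrophilin, read 8.59, 8.38, 7.96 and 7.72 on normal arrays 1 to 4 and 9.69, 10.07, 10.86 and 9.78 on inflamed arrays 1 to 4 and rose by 1.94 ± 0.37 (SE; adjusted p = 0.0447). Another Adgrl1 probe set differed by 1.80 and was not called. Adgrl3, another latrophilin, rose by 1.36 ± 0.24. The 5 other Adgrl3 probe sets differed by 0.26 to 1.30, and none was called. Gprasp2, which sorts G protein receptors, rose by 1.83 ± 0.27. Inpp4b, a phosphoinositide phosphatase, rose by 1.16 ± 0.21 from a dim signal. Another Inpp4b probe set differed by -0.10 and was not called. Adap1, a binder of phosphoinositides, fell by 0.99 ± 0.14. The group was put together after its values were seen, so its direction is not a result about such genes in general. Among 13 prostaglandin genes 0 were called by limma (3 higher and 0 lower at an unadjusted p under 0.05; median 0.28), led by the receptor gene Ptger3 at 2.40 ± 0.94 (SE; adjusted p = 0.252).

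Among transporters, a channel and metabolic enzymes, grouped after their values were seen, 8 were called lower and 5 higher. Slc6a7, a proline transporter, read 11.95, 11.46, 10.53 and 11.46 on normal arrays 1 to 4 and 9.22, 9.08, 6.89 and 9.35 on inflamed arrays 1 to 4. Inflamed array 3 was lower than the other inflamed arrays by over 2 on the log2 scale, and all inflamed arrays lay below the normal ones. It fell by 2.71 ± 0.50 (SE; adjusted p = 0.0405). Of 18 amino acid carriers, whose median was -0.15, it was the single called member (5.56% called lower, against 0.275% of all genes). Slc6a7 in tumour-associated skin read 8.83, 8.74, 9.04 and 8.04. Slc29a1, a nucleoside transporter, fell by 0.96 ± 0.17. Plin4, a perilipin of lipid droplets, read 9.62, 9.28, 8.91 and 10.27 on normal arrays 1 to 4 and 7.68, 6.98, 7.49 and 8.04 on inflamed arrays 1 to 4, without overlap, and fell by 1.97 ± 0.29 (SE; adjusted p = 0.0202). Plin4 in tumour-associated skin read 7.12, 6.83, 6.85 and 7.38. It was the single called gene of 21 adipogenic and lipid genes (4.76% called lower, against 0.275% of all genes), whose median was 0.18. Cyp27a1, a sterol 27-hydroxylase, read 10.39, 10.46, 10.03 and 9.63 on normal arrays 1 to 4 and 8.65, 8.30, 7.07 and 9.11 on inflamed arrays 1 to 4 and fell by 1.85 ± 0.35 (SE; adjusted p = 0.0447). Another Cyp27a1 probe set differed by -0.66 and was not called. In the other direction, Cyp51, which makes cholesterol precursors, rose by 1.78 ± 0.31 (SE; adjusted p = 0.034). The 2 other Cyp51 probe sets differed by 0.72 to 0.85, and none was called.

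Duox1, an oxidase that makes hydrogen peroxide, read 9.98, 10.27, 9.49 and 10.15 on normal arrays 1 to 4 and 7.75, 8.15, 7.65 and 8.76 on inflamed arrays 1 to 4 and fell by 1.89 ± 0.28 (SE; adjusted p = 0.0202). Nat8f3, of the N-acetyltransferase 8 family, read 11.77, 12.05, 11.18 and 12.46 on normal arrays 1 to 4 and 9.75, 8.78, 9.45 and 9.96 on inflamed arrays 1 to 4 and fell by 2.38 ± 0.37 (SE; adjusted p = 0.022). Another Nat8f3 probe set differed by -1.71 and was not called. Probe sets of such close gene families may share signal between copies. Ddah1, which breaks down inhibitors of nitric oxide synthase, fell by 1.37 ± 0.21. The 4 other Ddah1 probe sets differed by -1.06 to -0.40, and none was called. Uap1l1, a relative of a nucleotide-sugar enzyme, fell by 1.08 ± 0.21. Another Uap1l1 probe set differed by 0.17 and was not called. Hk2, a hexokinase, was the single called member of 17 glycolysis and hypoxia genes (5.88% called higher, against 0.258% of all genes). It read 7.91, 7.58, 7.98 and 8.03 on normal arrays 1 to 4 and 9.18, 8.77, 9.01 and 8.68 on inflamed arrays 1 to 4, without overlap, and rose by 1.04 ± 0.17 (SE; adjusted p = 0.0304). Hk2 in tumour-associated skin read 9.42, 8.99, 9.08 and 8.87. That list's median was 0.21. Cacna1g, a T-type calcium channel, rose by 1.31 ± 0.26, Akr1c18, a steroid dehydrogenase, by 1.32 ± 0.24, and Mboat1, a lysophospholipid acyltransferase, by 1.00 ± 0.16. Akr1c18 was dim in both groups, with means of 4.34 in the normal and 5.66 in the inflamed group. Another Mboat1 probe set differed by -0.15 and was not called.

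Inflammatory gene lists held no called member. The 29 chemokines and cytokines had 1 member higher and 2 lower at an unadjusted p under 0.05 (limma), with a median of -0.12 and the smallest p for Lif at -0.47 ± 0.18 (SE; adjusted p = 0.242). The neutrophil chemokine Cxcl1 read 10.50, 11.04, 12.21 and 7.998 on normal arrays 1 to 4 and 12.35, 12.31, 11.08 and 12.12 on inflamed arrays 1 to 4, and its groups overlapped. The 22 cytokine receptors had 1 higher and 3 lower and a median of -0.18, led by Lifr at 1.93 ± 0.63 (SE; adjusted p = 0.184). The 17 NF-kappaB targets had 3 higher and 0 lower and a median of 0.18, led by Nfkbiz at 1.85 ± 0.46 (SE; adjusted p = 0.103). The 24 interferon-stimulated genes had 18 negative differences, a median of -0.37 and no member called (limma; 0 higher and 2 lower at an unadjusted p under 0.05), led by Ifit2 at -1.23 ± 0.38 (SE; adjusted p = 0.156). Of 13 genes for MHC class I and antigen processing, 12 had negative differences, with a median of -0.59 and none called (0 higher and 5 lower at an unadjusted p under 0.05), led by the immunoproteasome gene Psmb10 at -0.82 ± 0.27 (SE; adjusted p = 0.183). The 17 complement genes had 1 higher and 0 lower and a median of -0.19, led by Masp1 at 1.87 ± 0.38 (SE; adjusted p = 0.0606).

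**Figure D4:**
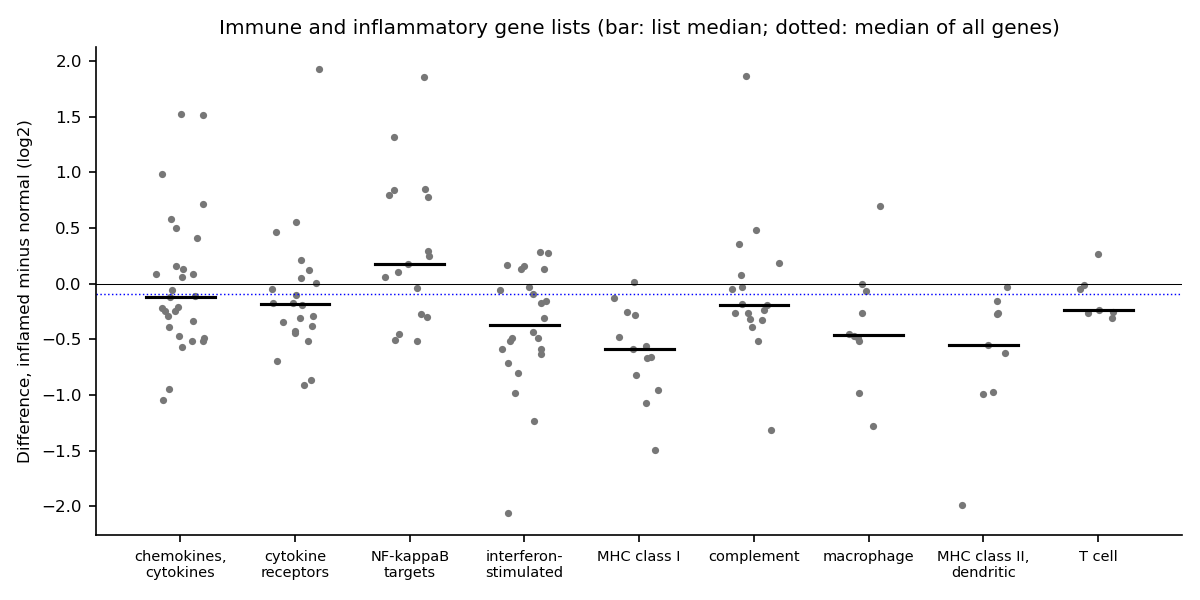
Difference between inflamed and normal fibroblasts (y axis, log2) for each measured gene of 9 immune and inflammatory lists (x axis), each point 1 gene. The list medians (bars) lie between -0.59 for MHC class I genes and 0.18 for NF-kappaB targets, around the dotted median of all genes at -0.09.

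Some called genes with immune roles lay outside the lists and were grouped after their values were seen. Casp4 and Casp12, neighbouring genes on chromosome 9 that encode inflammatory caspases, were both called. Casp4 read 9.33, 9.19, 8.88 and 9.78 on normal arrays 1 to 4 and 7.58, 7.25, 6.75 and 8.23 on inflamed arrays 1 to 4 and fell by 1.84 ± 0.28 (SE; adjusted p = 0.0211). Casp12 fell by 1.54 ± 0.23. Another Casp12 probe set differed by -1.01 and was not called. Ackr1, the atypical receptor that binds chemokines without signalling to the cell, fell by 1.51 ± 0.29. Clec2d, a lectin-like ligand of a natural killer cell receptor, fell by 1.62 ± 0.29, and Sectm1a, a secreted and transmembrane protein that acts on T cells, fell by 1.69 ± 0.22. C1qtnf3, a secreted C1q-like protein, read 10.67, 11.19, 10.93 and 11.00 on normal arrays 1 to 4 and 7.88, 8.98, 7.07 and 9.29 on inflamed arrays 1 to 4 and fell by 2.64 ± 0.40 (SE; adjusted p = 0.0211). Ms4a4d, of the MS4A membrane family, fell by 1.20 ± 0.22, and Mvp, the major vault protein, fell by 1.09 ± 0.18. In Casp4 and C1qtnf3 the lowest normal array lay above the highest inflamed array.

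Of called genes of growth, survival and gene regulation, again grouped after the values were seen, 10 rose and 3 fell. Pawr, a pro-apoptotic transcriptional repressor, read 5.50, 5.74, 6.67 and 3.78 on normal arrays 1 to 4 and 8.64, 8.61, 7.86 and 8.29 on inflamed arrays 1 to 4 and rose by 2.93 ± 0.50 (SE; adjusted p = 0.0331). Another Pawr probe set differed by 0.26 and was not called. Bcl2l11, the pro-apoptotic protein BIM, read 7.64, 7.78, 8.96 and 7.46 on normal arrays 1 to 4 and 9.70, 10.70, 9.58 and 9.57 on inflamed arrays 1 to 4 and rose by 1.93 ± 0.37 (SE; adjusted p = 0.0459). The 4 other Bcl2l11 probe sets differed by 0.52 to 1.26, and none was called. Tcim, a small regulator of Wnt signalling, read 4.70, 5.56, 6.48 and 4.52 on normal arrays 1 to 4 and 8.20, 7.71, 8.15 and 7.45 on inflamed arrays 1 to 4 and rose by 2.56 ± 0.39 (SE; adjusted p = 0.0211). Another Tcim probe set differed by 1.07 and was not called. Mex3a, an RNA-binding ubiquitin ligase, read 8.18, 6.66, 7.95 and 6.19 on normal arrays 1 to 4 and 9.41, 9.54, 9.09 and 8.89 on inflamed arrays 1 to 4 and rose by 1.99 ± 0.39 (SE; adjusted p = 0.0492). Another Mex3a probe set differed by 1.47 and was not called. In these genes too, every inflamed array lay above every normal array.

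Sox4, a transcription factor of progenitor cells, rose by 1.11 ± 0.14 (SE; adjusted p = 0.0201). The 7 other Sox4 probe sets differed by -0.17 to 1.85, and 2 were called. Ube2c, a ubiquitin enzyme of mitotic exit, rose by 1.28 ± 0.25, Pabpc1, the poly-A binding protein, by 0.66 ± 0.13, and Ahi1, a protein of primary cilia, by 0.99 ± 0.18. Another Ahi1 probe set differed by 0.29 and was not called. Rnf150 rose by 1.21 ± 0.23 and C1qbp, a largely mitochondrial protein, by 1.07 ± 0.20. Another C1qbp probe set differed by 0.52 and was not called. Cenpb, which binds centromere DNA, fell by 0.76 ± 0.14, Zfp385a fell by 1.15 ± 0.20, and Cuedc1 fell by 0.90 ± 0.16. The 2 other Cuedc1 probe sets differed by -1.63 to -1.46, and none was called. The 28 cell cycle genes held 0 called members (limma; 10 higher and 1 lower at an unadjusted p under 0.05), a median of 0.50, and the smallest p for Rrm2, a subunit of ribonucleotide reductase, at 2.68 ± 0.60 (SE; adjusted p = 0.0773).

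The remaining calls were genes for which no role is given here. Transcript 2310034O05Rik read 10.16, 10.03, 10.12 and 11.56 on normal arrays 1 to 4 and 8.31, 7.51, 6.12 and 8.54 on inflamed arrays 1 to 4 and fell by 2.85 ± 0.52 (SE; adjusted p = 0.0405). Zfhx2os, annotated as antisense to Zfhx2, read 6.24, 6.66, 5.54 and 7.16 on normal arrays 1 to 4 and 4.82, 4.19, 4.61 and 4.63 on inflamed arrays 1 to 4 and fell by 1.84 ± 0.30 (SE; adjusted p = 0.0277). Their ranges did not overlap. Falls of 0.97 to 1.43 were called for E330013P04Rik, Tmem140, Trank1, 4930505M18Rik, Serpinb6c, 2600006K01Rik and A330102I10Rik. Of these, 4930505M18Rik was dim in both groups. Probe sets of called genes not given above, none of them called, differed by 1.00 for Tns3, 0.65 for Dock6 and 0.80 for Pabpc1. They differed by -0.48 for Cenpb, -0.54 and -0.41 for Arhgef10, -0.11 for Tmem140, -0.75 for Mvp, -0.82 for Coro2b and -1.27 for A330102I10Rik.

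Of 21 keratinocyte markers Perp and Krt15 were called higher (9.52%, against 0.258% of all genes). In all, 19 had positive differences, against 39.4% of all genes, with a median of 0.47, or 0.30 without inflamed array 1. In 6 of the 21 (28.6%, against 5.07% of all genes) the inflamed arrays lay wholly above the normal ones. The mean of the list was 6.50 to 6.62 on the normal arrays and 7.13 to 8.09 on the inflamed arrays, without overlap. Perp, a desmosomal protein and p53 target, read 5.06, 4.76, 6.38 and 5.19 on normal arrays 1 to 4 and 9.97, 8.68, 8.04 and 8.72 on inflamed arrays 1 to 4. Its normal arrays were dim and normal array 3 was the highest of them, and it rose by 3.50 ± 0.68 (SE; adjusted p = 0.0478), the largest rise of all called genes. Perp in tumour-associated skin read 4.85, 6.58, 8.67 and 6.26. Krt15, a keratin of basal and follicle stem cells, read 6.16, 6.46, 6.85 and 6.69 on normal arrays 1 to 4 and 9.04, 8.72, 7.81 and 8.14 on inflamed arrays 1 to 4 and rose by 1.89 ± 0.27 (SE; adjusted p = 0.0202). Krt15 in tumour-associated skin read 6.25, 6.30, 5.90 and 6.62. Col17a1, the hemidesmosomal collagen of basal keratinocytes, was not on the list and rose by 1.82 ± 0.28 (SE; adjusted p = 0.022). Its groups did not overlap, as in Perp and Krt15.

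Other keratinocyte markers had differences that were not called. Krt14 of the basal layer read 6.37, 6.89, 6.95 and 6.49 on normal arrays 1 to 4 and 10.33, 8.69, 7.83 and 9.54 on inflamed arrays 1 to 4, a difference of 2.42 ± 0.58 (SE; adjusted p = 0.0926). Krt5, its partner, differed by 1.48 ± 0.35 (SE; adjusted p = 0.0926), the desmosomal Dsp by 3.53 ± 0.81 (SE; adjusted p = 0.0824), and Krt1 of the spinous layer by 2.70 ± 0.74 (SE; adjusted p = 0.123). Epcam and Ivl differed by -0.10 ± 0.29 and -0.16 ± 0.20, and their groups overlapped. No marker is at 0 on these arrays, since values are normalized log2 intensities with no true zero. The part of keratinocyte RNA in the calls was not tested.

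**Figure D5:**
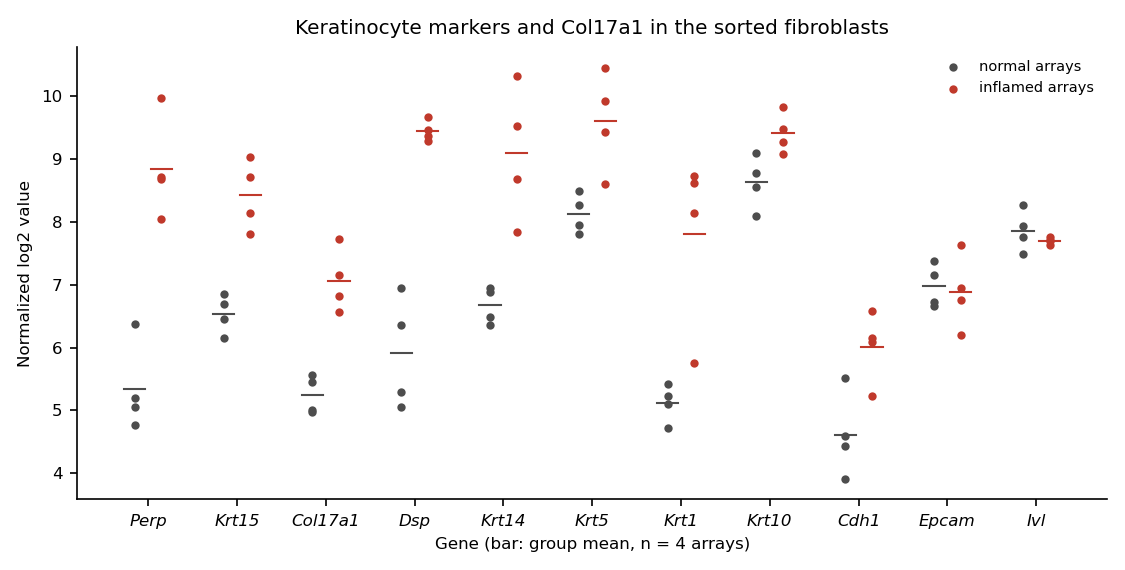
Normalized log2 value (y axis) of 10 keratinocyte markers and Col17a1 (x axis) on each of 4 normal and 4 inflamed arrays, with the group mean as a bar; levels are to be compared within a gene. The inflamed arrays lie above the normal ones in Perp, Krt15, Col17a1, Dsp, Krt14, Krt5 and Krt1, and overlap them in Krt10, Cdh1, Epcam and Ivl. Of the 21 measured markers of the list, 6 did not overlap, and all 6 are among those shown.

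Of 12 pericyte and smooth muscle markers 2 were called lower (16.7%, against 0.275% of all genes) and none higher. At an unadjusted p under 0.05 (limma) 4 members were lower and 3 higher, and differences ran up to 0.85. The inflamed arrays lay wholly below the normal ones in 4 members and wholly above in 2, against 10.2% and 5.07% of all genes. Kcnj8, a potassium channel subunit typical of pericytes, read 10.87, 11.03, 11.09 and 11.32 on normal arrays 1 to 4 and 9.33, 8.57, 9.26 and 9.70 on inflamed arrays 1 to 4 and fell by 1.86 ± 0.27 (SE; adjusted p = 0.0202). Kcnj8 in tumour-associated skin read 6.56, 7.09, 6.91 and 7.74. Abcc9, its partner subunit and its neighbour on chromosome 6, differed by -1.98 ± 0.58 (SE; adjusted p = 0.147). Ndufa4l2, a mitochondrial protein of pericytes and hypoxic cells, read 10.75, 10.63, 11.01 and 11.19 on normal arrays 1 to 4 and 9.75, 9.43, 9.57 and 10.34 on inflamed arrays 1 to 4 and fell by 1.12 ± 0.21 (SE; adjusted p = 0.0446). Ndufa4l2 in tumour-associated skin read 7.85, 7.85, 7.73 and 7.35. Neither gene's groups overlapped. On that list 8 had negative differences and the median was -0.14, but 0.06 without normal array 4 and 0.33 with the spike covariate; the list mean was 7.92 to 8.07 on the normal and 7.56 to 7.79 on the inflamed arrays. The part of pericyte RNA in these falls was not tested.

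For the other cell types no marker was called by limma. The 10 macrophage and monocyte markers had 8 negative differences, a median of -0.46 and 1 higher and 3 lower at an unadjusted p under 0.05, led by Csf1r at -1.28 ± 0.45 (SE; adjusted p = 0.212). All 9 MHC class II and dendritic markers were negative, with a median of -0.55 and 5 lower at an unadjusted p under 0.05, led by Cd74 at -1.99 ± 0.56 (SE; adjusted p = 0.136). The 7 T cell markers had a median of -0.24 and the smallest p for Cd4 at -0.31 ± 0.13 (SE; adjusted p = 0.279), and the 6 mast cell markers a median of -0.37 and the smallest p for Cpa3 at -0.80 ± 0.28 (SE; adjusted p = 0.207). The 6 neutrophil markers had a median of -0.04 and the smallest p for Mpo at -0.49 ± 0.26 (SE; adjusted p = 0.373). The 10 endothelial markers had a median of -0.11 and the smallest p for Egfl7 at -0.50 ± 0.21 (SE; adjusted p = 0.283). The 8 Schwann cell and melanocyte markers were led by Mbp at -0.89 ± 0.33 (SE; adjusted p = 0.231), the 8 skeletal muscle markers by Myl1 at -0.43 ± 0.19 (SE; adjusted p = 0.296), the 4 adipocyte markers by Lep at -0.22 ± 0.14 (SE; adjusted p = 0.44), and the 2 erythrocyte markers by Hba-a1 at -0.42 ± 0.21 (SE; adjusted p = 0.347). Their medians were -0.10, -0.30, -0.12 and -0.17. At an unadjusted p under 0.05 these 8 lists held 0 members higher and, in order, 1, 2, 0, 2, 1, 2, 0 and 0 lower from T cells to erythrocytes.

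The lists for general cell state also held no call by limma. The 16 heat shock genes had 14 positive differences and a median of 0.60 (3 higher and 1 lower at an unadjusted p under 0.05), led by Hsph1 at 1.45 ± 0.40 (SE; adjusted p = 0.128). The 22 immediate early and AP-1 genes had a median of 0.14 (3 and 0), led by Fosl2 at 1.23 ± 0.33 (SE; adjusted p = 0.115), and the 18 genes of folding and stress in the endoplasmic reticulum one of 0.02 (3 and 3), led by Herpud1 at -0.86 ± 0.26 (SE; adjusted p = 0.165). The 16 circadian clock genes had a median of -0.49 (2 and 2), led by the repressor Bhlhe41 at -1.51 ± 0.32 (SE; adjusted p = 0.0616). The array means of that list overlapped, at 8.58 to 9.07 in the normal and 7.85 to 9.02 in the inflamed group. On inflamed array 3 the clock gene Nr1d1 read 7.32, against 11.09 to 11.13 on the other inflamed arrays. Dbp read 8.72 there, against 11.88 to 12.49.

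The 26 growth factors (4 higher and 3 lower at an unadjusted p under 0.05; median -0.08) were led by Pdgfc at 1.40 ± 0.36 (SE; adjusted p = 0.11), and the 18 IGF-binding proteins and growth factor receptors (5 and 5; -0.01) by Egfr at -1.20 ± 0.25 (SE; adjusted p = 0.0616). The 17 aldehyde dehydrogenase and retinoid genes (2 and 3; -0.16) were led by Aldh3a1 at -1.56 ± 0.41 (SE; adjusted p = 0.114), and the 21 glutathione and xenobiotic genes (2 and 4; -0.05) by Cyp2f2 at -1.69 ± 0.41 (SE; adjusted p = 0.0971). The 22 Hox genes (2 and 0; 0.19) were led by Hoxa2 at 0.73 ± 0.28 (SE; adjusted p = 0.239). The 21 ribosomal protein genes had a median of 0.21 (1 and 0), led by Rpl14 at 1.72 ± 0.70 (SE; adjusted p = 0.27), and the 21 oxidative phosphorylation genes one of 0.28 (1 and 0), led by Cox7a2 at 0.63 ± 0.23 (SE; adjusted p = 0.224). None of these genes was called.

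Several called genes had a different level again in tumour-associated skin. That comparison shares the inflamed arrays with the one above, so the values are given side by side. In tumour-associated against inflamed fibroblasts 6.71% of all genes were called (limma), and in tumour-associated against normal fibroblasts, which share the normal arrays, 9.65%. Coch averaged 9.89 in normal skin, 11.66 in inflamed skin and 7.97 around tumours, and the tumour-associated arrays were lower by 3.69 (SE 0.32, adjusted p = 5.51e-05). Krt15 averaged 6.54 in normal skin, 8.43 in inflamed skin and 6.27 around tumours, and Egfl6 3.27 in normal skin, 6.07 in inflamed skin and 3.89 around tumours, with adjusted p-values of 0.000609 and 0.00614 between the last 2 groups. C1qtnf3 averaged 10.95 in normal skin, 8.30 in inflamed skin and 11.12 around tumours, and Ddah1 10.10 in normal skin, 8.73 in inflamed skin and 11.97 around tumours, both lowest in inflamed skin, with adjusted p-values of 0.00162 and 6.79e-06. Col12a1 averaged 7.13 in normal skin, 8.13 in inflamed skin and 13.15 around tumours, a further 5.02 (SE 0.15, adjusted p = 6.81e-09), and Sorcs2 6.27 in normal skin, 7.53 in inflamed skin and 10.90 around tumours (adjusted p = 1.58e-05). Coch, Krt15 and Egfl6 were thus highest in inflamed skin by their group means, and Col12a1 and Sorcs2 in tumour-associated skin. The genes were picked from those called with the same inflamed arrays. That favours small p-values where the tumour-associated level lies back toward normal. The poly-A spike signal was also lowest on the inflamed arrays, and its part in these levels was not tested.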

How the data were processed

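RNA of sorted mouse skin fibroblasts was measured on 12 Affymetrix arrays, 4 in each of 3 groups. Per the labels' protocols, isolated RNA (Qiagen RNeasy) was amplified once (NuGEN Pico). The authors deposited normalized values per probe set on a log2 scale, 2.08 to 14.95. The submitters' processing notes name limma, but how the values were made is not given in the sources used here. Lower and upper quartiles of the deposited values spanned 0.284 and 0.276 between arrays, above a limit of 0.1, so the values were quantile normalized. Of 45101 probe sets, 64 were controls, 34945 had 1 gene symbol in GEO's platform annotation, 932 several and 9160 none. The 18193 genes were fitted on all 12 arrays with the group as the factor (limma 3.58.1, R 4.3.3, lmFit and eBayes, Benjamini-Hochberg adjustment over all genes), with no replicate block. Over all genes, deviations of same-numbered arrays from their group means correlated at -0.094 to 0.177. The poly-A spike signal read 9.72, 9.58, 8.72 and 11.43 on normal arrays 1 to 4. It read 10.27, 9.89, 9.21 and 11.66 on tumour-associated arrays 1 to 4, and 8.16, 7.73, 7.67 and 7.46 on inflamed arrays 1 to 4. Shared handling by number was not tested beyond a fit with the replicate number as a block. The fit was tested on simulated data with independent noise for each gene. It called 50 of 100 genes changed by 1 on the log2 scale, 85 of 100 changed by 2, and 5 unchanged genes. The simulation did not include the spike difference between groups. The array number limits the precision, with a median SE of 0.226 over all genes.

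Named genes were the 15 largest rises and the 15 largest falls among called genes, every called member of 51 gene lists, the other called genes grouped by role, the member with the smallest p of each list without a call, and Pdgfra, Col1a1 and Acta2. Other genes that were not called were chosen after their values were seen. The comparison and the lists were chosen with earlier results of these data known. A probe set is called dim in a group where its mean lies under 6.16, the value below which 40% of genes lie. Promoter sequences are RefSeq's (GRCm38.p6), and 34 of the 47 genes called higher and 36 of the 50 called lower had one.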

Additional observations from a re-analysis of the deposited data

Results flagged for a closer look

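In 16 of 280 groups of 4 arrays (5.71%), 1 array stood apart from the other 3 by more of the group's range than Dixon's critical value. Each group was a named gene or a control measure in normal or inflamed skin. Chance gives about 5% of groups. Normal array 4 was the array that stood apart in 7 of the 16 and inflamed array 3 in 5, and other arrays in 1 each.

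Normal array 4 gave these values. 2310034O05Rik read 11.56 on normal array 4 against 10.03 to 10.16 on the other normal arrays. Tns3 read 10.32 on normal array 4 against 10.72 to 10.76 on the other normal arrays. Zfp385a read 9.47 on normal array 4 against 8.62 to 8.76 on the other normal arrays. Ptger3 read 4.36 on normal array 4 against 8.09 to 8.62 on the other normal arrays. Cox7a2 read 11.03 on normal array 4 against 12.04 to 12.18 on the other normal arrays. Egfl7 read 8.63 on normal array 4 against 7.70 to 7.80 on the other normal arrays. Mbp read 9.05 on normal array 4 against 7.36 to 7.51 on the other normal arrays. Of these genes, 2310034O05Rik, Tns3 and Zfp385a were called, and their groups did not overlap.

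Inflamed array 3 stood apart in called genes. Gprasp2 read 7.96 on inflamed array 3 against 6.67 to 6.83 on the other inflamed arrays. Dock6 read 10.24 on inflamed array 3 against 9.91 to 9.94 on the other inflamed arrays. Cenpb read 8.72 on inflamed array 3 against 9.09 to 9.14 on the other inflamed arrays. Uap1l1 read 10.24 on inflamed array 3 against 11.06 to 11.16 on the other inflamed arrays. Slc6a7 read 6.89 on inflamed array 3 against 9.08 to 9.35 on the other inflamed arrays.

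Other arrays stood apart once each. Bcl2l11 read 10.70 on inflamed array 2 against 9.57 to 9.70 on the other inflamed arrays. Lep read 4.80 on inflamed array 4 against 4.59 to 4.63 on the other inflamed arrays. Ube2c read 8.32 on normal array 3 against 7.42 to 7.46 on the other normal arrays. Lpar3 read 5.08 on normal array 2 against 5.48 to 5.50 on the other normal arrays. No control measure passed Dixon's critical value. The 3′ minus 5′ signal of Gapdh was the highest of its group on inflamed array 3, at 3.37, and the spike control signal on normal array 4, at 11.43. Tumour-associated array 4 read higher in both, at 3.765 and 11.66. The part of these signals in the values above was not tested.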

How the results depend on the processing

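Against 97 genes called, limma called 62 from the values as deposited (61 of them among the 97), 58 with the arrays centred on the median, 228 with the mean of all probe sets of a gene and 839 with array weights. It called 0 at an adjusted p under 0.01 and 0 with the poly-A spike level as a covariate (2227 at an unadjusted p under 0.05). An ordinary linear model called 4. The fit with the replicate number as a block called 57, of which 45 were among the 97. The labels do not say whether a number marks shared handling. Leaving out 1 array at a time called 0 to 249 genes. The 5 other alternatives called 81 to 144; the fit on only the 8 arrays of the comparison called 116 and shared 58 with the 97, and the ribosomal shift called 144 and shared 69. With the spike covariate Lifr differed by -0.026, Ptger3 by -0.79, Mbp by 0.10 and Hba-a1 by 0.16, each of opposite sign to the value reported. Without probe sets that may bind several transcripts, Acta2 differed by -0.051, since another probe set then stood for it. The 3′ minus 5′ difference of Gapdh was -0.102 without inflamed array 3 and up to 0.483 without another array. For the rest the cause was not tested. All 97 genes kept their sign in every alternative in which they were tested, other than Acta2 in the one named. In the fits without 1 array this was fixed in advance, since the groups of these genes do not overlap. Leaving out 1 array changed none of the 97 differences by more than 1.28 times. With the spike covariate 14 of the 97 were smaller by over 1.5 times, among them Acta2 at 1.86, Coch at 1.07, Plin4 at -1.22, 2310034O05Rik at -1.71 and 2600006K01Rik at -0.73. Of the 97, 18 were dim in at least 1 group, 5 of them in both, where background limits the fold.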
